A study of Mus musculus with 6 samples.

Results

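Dividing cells switch on a common set of genes in G2 phase and mitosis. The 54 mitosis and chromosome segregation genes described here were listed by name and cover mitotic entry, chromosome condensation, the kinetochore and its checkpoint, the spindle, anaphase and cytokinesis. They are 54 of the 24972 genes in the deposited table of RNA-Seq values from isolated lung endothelial cells (iLECs), and their levels were compared between 3 control and 3 Atp6ap2iECKO samples at P7. iLECs were CD31+ cells pulled out of dissociated lungs on magnetic beads coated with antibody. Mice of both groups received tamoxifen (100 µg) on P1, P2 and P3. The control group had the floxed *Atp6ap2* allele (labelled fl/Y) and no Cre, and Atp6ap2iECKO samples carried the same allele with Cdh5-CreERT2, a tamoxifen-activated Cre recombinase under the promoter of the endothelial gene *Cdh5*. Because only the Atp6ap2iECKO samples carried active Cre, the deletion and the presence of Cre cannot be told apart. The labels give the strain as C57BL/6, whereas the methods describe a mixed CD1 and C57BL/6 background. Each sample gave 1 library, and the study describes the samples as biological replicates.

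In G2 phase, cyclin A and cyclin B activate the kinase CDK1, which drives the cell into mitosis. Chromosomes are then condensed, captured by spindle microtubules at their kinetochores, and held by the spindle assembly checkpoint until every pair is attached. The anaphase-promoting complex (APC/C) next marks cyclin B and securin for destruction, sister chromatids separate, and the cell divides. Transcription of these genes is low in quiescent cells, where the DREAM complex represses them. For most of them it peaks in G2 phase and mitosis, when B-MYB and FOXM1 bind with the MuvB core. A pair of elements recurs in the promoters, the cell cycle genes homology region (CHR) and the CCAAT box bound by NF-Y. The lung microvasculature is still expanding in the first postnatal weeks, and a part of its endothelial cells is in cycle.

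The 54 genes lie on 17 chromosomes of GRCm38, so their promoters were read before their levels to show what they share in sequence. RefSeq promoter windows, from 250 bases before to 50 after the transcription start (GRCm38.p6), were matched for 45 of the 54 genes. Each window was searched on both strands for TTTGAA (CHR core 1), TTTAAA (CHR core 2) and CCAAT (the NF-Y box). TTTGAA was found in 31 of the 45 windows (68.9%), against 18.1% of all 27025 promoters and 12.1% of the promoters of genes tested here. CCAAT was also found in 31 windows (68.9%), against 37.9% of all promoters. Both motifs were present in 27 windows (60%), against 7.12% of all promoters, while TTTAAA was present in 10 (22.2%), against 13.2%. In 28 of the 31 genes with TTTGAA, a copy began at or after position -50 from the start, and 20 of the 45 genes had at least 2 CCAAT boxes. Over the 27 genes with both, the median distance from the nearest upstream CCAAT box to the TTTGAA was 35 bases. The count near the start, the count of genes with at least 2 CCAAT boxes and this distance were not taken for other promoters. Matches shared bases in 2 genes, a TTTGAA and a CCAAT box in *Cdca8* and a pair of CCAAT boxes in *Ube2c*. Of 64 other mitosis genes on a separate list, 53 had a window and 29 of these (54.7%) held TTTGAA, whereas 3 of the 21 S phase genes with a window (14.3%) did. CCAAT was in 14 of those 21 S phase promoters (66.7%). The share with TTTGAA was 66.7% in the 18 windows of genes that passed the genotype test below and 70.4% in the 27 that did not. A match shows only that the letters are present in the window.

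**Figure D1:**
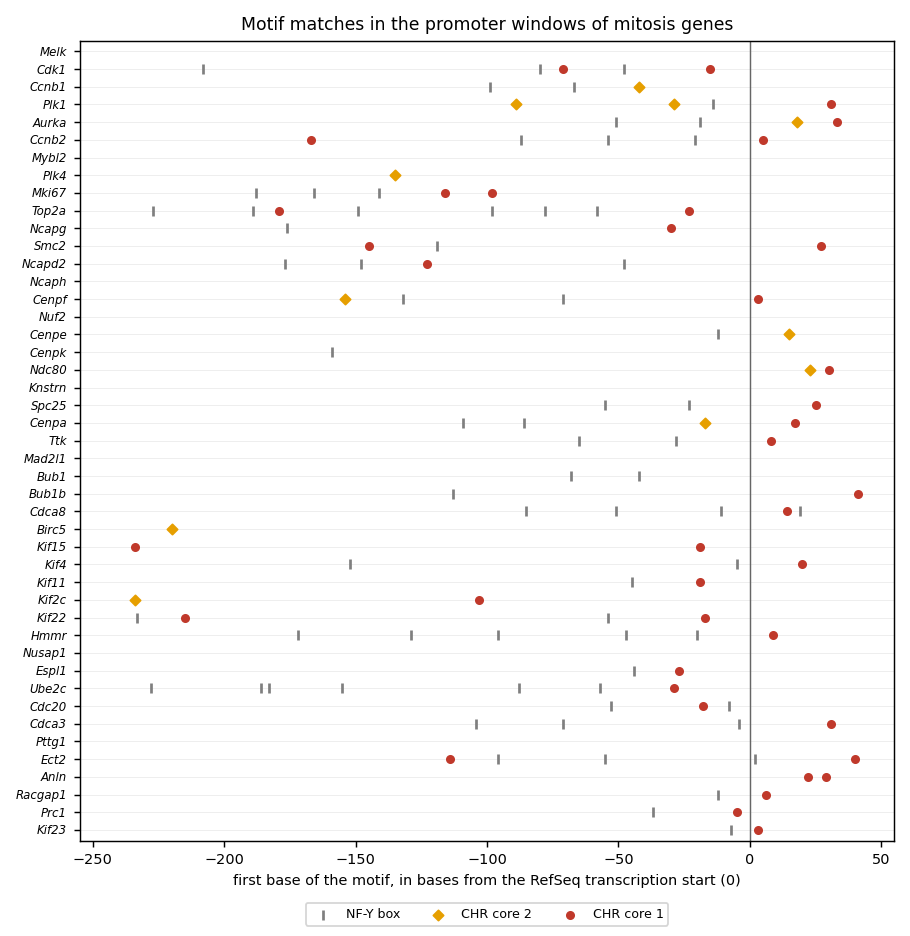
Motif matches in the promoter windows of the 45 mitosis genes with a RefSeq window, by role from top to bottom. The horizontal axis is the first base of each match in bases from the transcription start. Circles are CHR core 1, diamonds CHR core 2 and ticks the NF-Y box. A circle lies at or after -50 in 28 of 31 genes, and a tick lies to the left of a circle in 27 genes.

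The windows of 5 genes are printed 5′ to 3′ on the strand of the gene, with every match to the CHR cores and the NF-Y box, in either orientation, in capitals. *Cdk1* shows CCAAT boxes upstream of a TTTGAA close to the start. *Cdc20* has a CCAAT box on either side of such a TTTGAA, with first bases at -53 and -8 and the TTTGAA at -18. *Top2a* has 6 CCAAT boxes, *Mki67* has its motifs farther upstream, and *Mybl2*, the gene with the largest genotype difference, has none of the 3 motifs.
*Cdk1* (GRCm38.p6, chr10:69352863-69353162, minus strand): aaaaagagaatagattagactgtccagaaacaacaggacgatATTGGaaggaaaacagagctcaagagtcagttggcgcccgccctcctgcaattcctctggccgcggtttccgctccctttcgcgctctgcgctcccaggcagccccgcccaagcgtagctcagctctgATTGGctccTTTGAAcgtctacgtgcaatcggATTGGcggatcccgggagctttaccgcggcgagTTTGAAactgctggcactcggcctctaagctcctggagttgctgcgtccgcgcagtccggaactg
*Cdc20* (GRCm38.p6, chr4:118437294-118437593, minus strand): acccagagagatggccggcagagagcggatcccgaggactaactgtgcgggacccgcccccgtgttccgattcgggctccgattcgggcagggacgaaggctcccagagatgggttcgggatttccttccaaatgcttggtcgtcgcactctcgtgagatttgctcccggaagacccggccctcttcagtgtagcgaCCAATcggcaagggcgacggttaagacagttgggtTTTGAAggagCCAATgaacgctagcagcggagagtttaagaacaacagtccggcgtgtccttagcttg
*Top2a* (GRCm38.p6, chr11:99024140-99024439, minus strand): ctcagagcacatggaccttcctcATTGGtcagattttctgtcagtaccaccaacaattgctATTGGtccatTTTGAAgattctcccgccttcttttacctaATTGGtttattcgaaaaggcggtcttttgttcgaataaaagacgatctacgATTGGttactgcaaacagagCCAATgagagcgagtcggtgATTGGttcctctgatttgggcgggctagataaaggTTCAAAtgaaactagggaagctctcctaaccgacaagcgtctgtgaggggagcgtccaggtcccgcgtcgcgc
*Mki67* (GRCm38.p6, chr7:135716330-135716629, minus strand): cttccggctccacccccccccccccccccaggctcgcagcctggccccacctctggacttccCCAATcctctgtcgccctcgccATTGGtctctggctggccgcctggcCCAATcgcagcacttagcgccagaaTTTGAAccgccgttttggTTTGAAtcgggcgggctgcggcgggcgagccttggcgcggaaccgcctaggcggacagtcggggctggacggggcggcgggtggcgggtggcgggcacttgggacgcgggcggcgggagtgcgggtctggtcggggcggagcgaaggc
*Mybl2* (GRCm38.p6, chr2:163054385-163054684, plus strand): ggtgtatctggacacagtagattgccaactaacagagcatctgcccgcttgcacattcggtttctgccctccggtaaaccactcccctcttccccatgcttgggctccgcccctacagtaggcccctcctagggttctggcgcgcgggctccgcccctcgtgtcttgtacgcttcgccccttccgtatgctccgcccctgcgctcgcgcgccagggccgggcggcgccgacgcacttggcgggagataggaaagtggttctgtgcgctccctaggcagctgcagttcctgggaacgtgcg

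Values in the table are estimated counts that had been normalized between libraries, and the text calls them normalized counts. Library totals ran between 26359661 and 28725799 in control and between 26243878 and 27221581 in Atp6ap2iECKO libraries. The step between the lowest values gave a relative depth of 1.00 to 1.04 in control and of 1.25 to 1.55 in Atp6ap2iECKO libraries, so depth moved with genotype, and its part in the results was not tested. *Atp6ap2* had 7490, 5815 and 5681 normalized counts in control replicates 1 to 3 and 4220, 2336 and 1982 in Atp6ap2iECKO replicates 1 to 3 (log2 fold change -1.22, SE 0.26, adjusted P = 0.0306, limma). Every control value exceeded every Atp6ap2iECKO value (two-sided P = 0.1 by exact permutation, the lowest that 3 against 3 can give). *Xist*, the RNA that coats the inactive X chromosome, was at 37704, 44402 and 31.7 in control and at 39442, 19.3 and 47487 in Atp6ap2iECKO libraries, although all 6 labels give an fl/Y genotype. The paper defines each group as fl/Y or fl/fl mice and states that neonates of both sexes were used. Libraries with high *Xist* held female RNA, so sex was mixed within both groups and the fl/Y label cannot hold for all 6. The endothelial markers *Pecam1* (52750 ± 4488 in control and 57016 ± 1283 in Atp6ap2iECKO, SD, n = 3) and *Cdh5* (92569 ± 17220 and 96010 ± 7186, SD, n = 3) were abundant in every library.

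All 54 genes were expressed above the filter on low values, a minimum of 10 in 3 or more libraries, and all 54 had a higher mean in Atp6ap2iECKO iLECs. By limma, with 1 added to each value before taking log2, 24 of the 54 were higher at an adjusted P value below 0.05, against 3.28% of the 14456 genes tested, and none was lower, against 4.97%. At an unadjusted P value below 0.05, 53 of the 54 were higher, against 11.6%. Every Atp6ap2iECKO library exceeded every control library in 40 of the 54, against 14.7% of the genes tested. The median log2 fold change was 0.86, with a range from 0.04 to 1.21, and that of all genes tested was 0.0049. Expressed as folds, 41 of the 54 lay between 1.5 and 2. In bulk RNA, more cells in mitosis and more of each transcript per cell cannot be told apart, nor can fewer cells of a type and less RNA per cell.

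Adjusted P values of the genes gathered around the threshold, from 0.0161 for *Plk4* to 0.199 for *Ccnb2*, with *Pttg1* apart at 0.894. At an adjusted P value below 0.1, 41 of the 54 passed, and at 0.01, 0 of the 54. The shares of all genes tested that passed at 0.1 and 0.01 were not counted. The difference between genes on either side of 0.05 was small. *Kif11*, just inside, had a log2 fold change of 0.88 (adjusted P = 0.0498, limma), and *Mki67*, just outside, had 1.04 (adjusted P = 0.0565, limma).

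**Figure D2:**
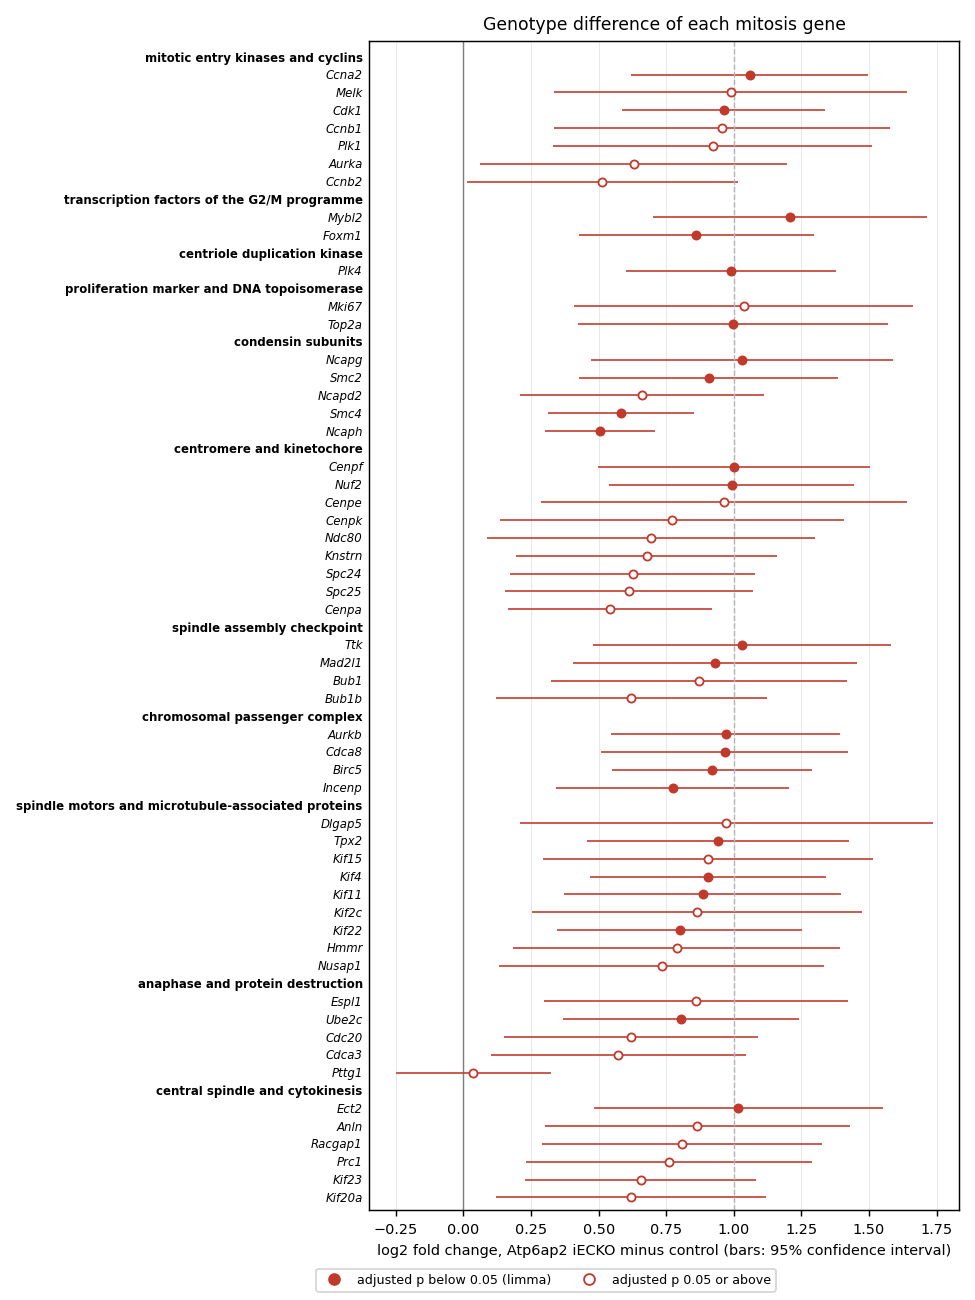
Log2 fold change of each of the 54 genes (Atp6ap2iECKO minus control, horizontal axis) with its 95% confidence interval, grouped by role. Filled points are the 24 genes with an adjusted P value below 0.05 by limma; every interval but that of *Pttg1* lies above 0.

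The control libraries differed among themselves more than the Atp6ap2iECKO libraries did. Control replicate 2 was the highest control library in 53 of the 54 genes, *Pttg1* being the exception, and its level was a median of 1.67 times the mean of control replicates 1 and 3 (range 1.04 to 2.24), where the median over all genes tested was 1.005. The coefficient of variation had a median of 33.5% among controls and 11.3% among Atp6ap2iECKO libraries, and was larger among controls in 52 of the 54 genes. Tested genes in the same range of levels had medians of 11.3% and 8.53%. Summed over the 54 genes, the normalized counts were 46445, 78514 and 46354 in control replicates 1 to 3 and 99969, 109008 and 90143 in Atp6ap2iECKO replicates 1 to 3. On this sum, control replicate 2 lay between its group and the Atp6ap2iECKO libraries, and the groups did not overlap. In 53 of the 54 genes all 3 Atp6ap2iECKO libraries exceeded control replicates 1 and 3. Against control replicate 2, Atp6ap2iECKO replicate 1 was higher in 52 genes, replicate 2 in 54 and replicate 3 in 42. Shares over all genes tested were not counted for these comparisons with part of the controls, and setting aside the highest control makes separation easier.

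**Figure D3:**
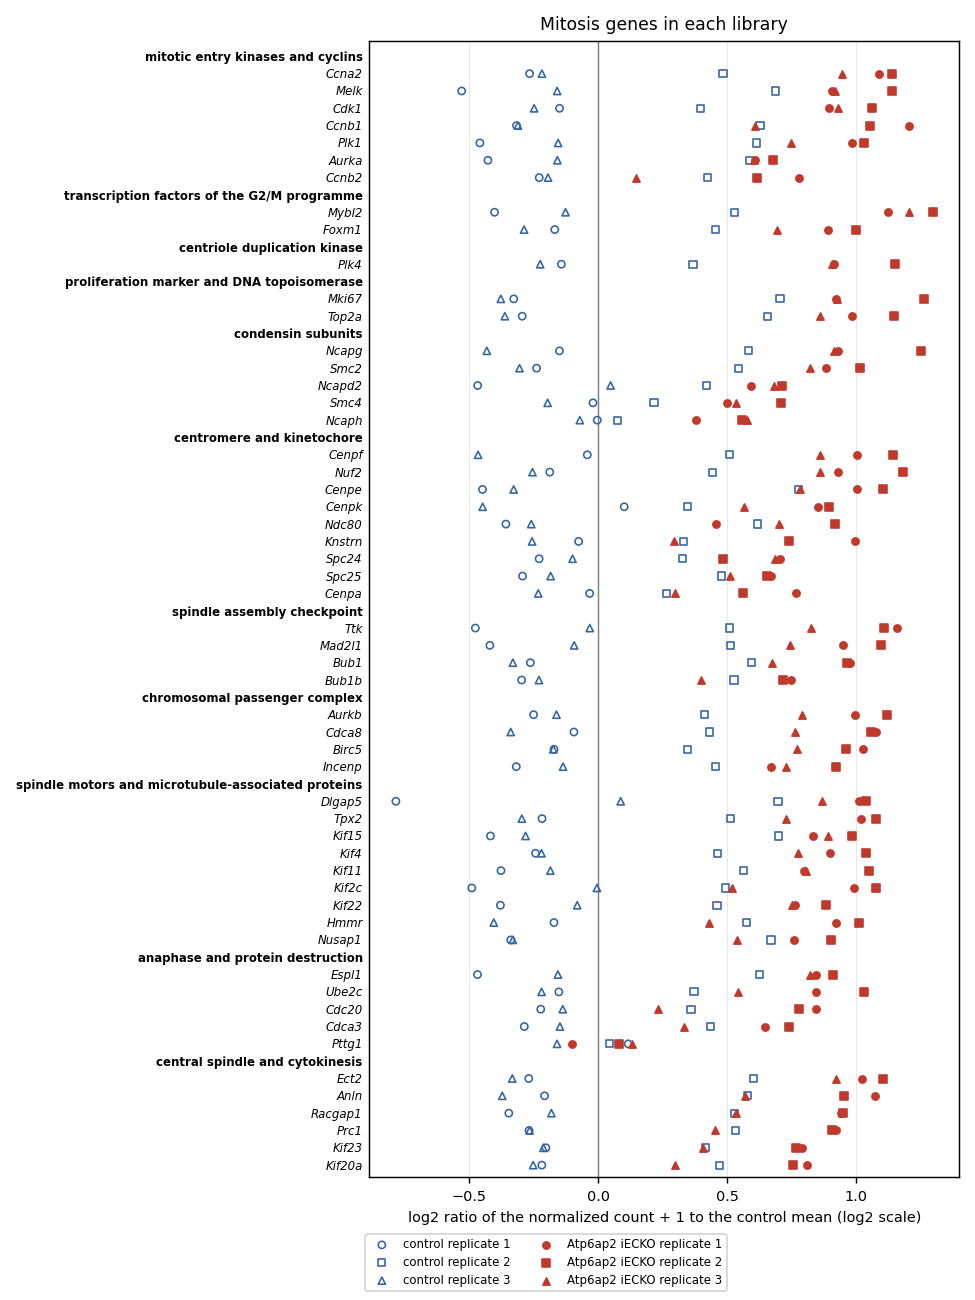
Level of each of the 54 genes in each library, as the log2 ratio of the normalized count plus 1 to the control mean (horizontal axis), grouped by role. Open blue symbols are control and filled red symbols Atp6ap2iECKO replicates 1 (circle), 2 (square) and 3 (triangle); the open squares of control replicate 2 lie to the right of the other controls in 53 of 54 genes.

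The number of genes called changed with single libraries. Without control replicate 2, 47 of the 54 genes passed, with 460 called higher among all genes against 474 with all libraries, and the median log2 fold change was 1.12. Without control replicate 1 or Atp6ap2iECKO replicate 1, 7 passed each time, with 274 and 363 called higher among all genes. Without control replicate 3, Atp6ap2iECKO replicate 2 or Atp6ap2iECKO replicate 3, 0 passed by limma, whereas 42, 43 and 51 were below 0.05 before adjustment. In the same 3 fits, 65, 32 and 28 genes were called higher among all genes. The median log2 fold change of the 54 stayed between 0.70 and 1.12 whichever library was left out. A fit without the mean-variance trend also called 0 of the 54, with 49 at an unadjusted P value below 0.05 and 69 called higher among all genes. With *Xist* presence as a covariate, 13 passed, with 248 called higher among all genes.

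**Figure D4:**
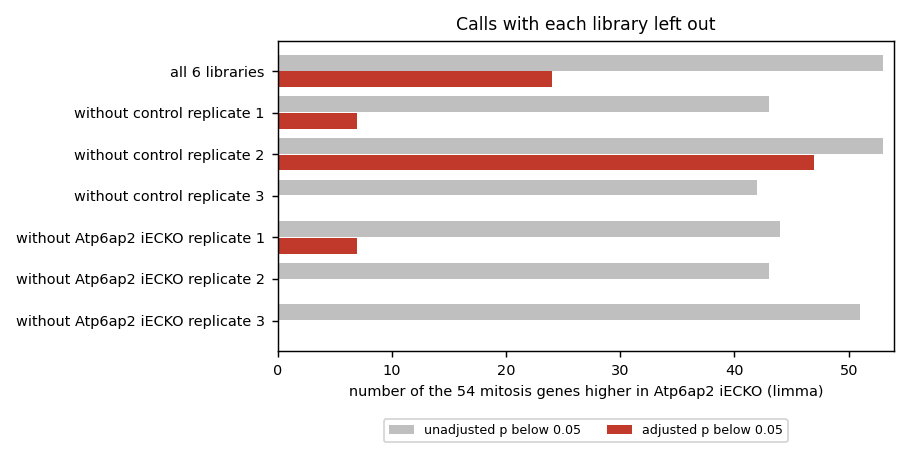
Number of the 54 genes higher in Atp6ap2iECKO by limma (horizontal axis) with all 6 libraries and with each library left out. Grey bars count genes with an unadjusted P value below 0.05 (42 to 53) and red bars those with an adjusted P value below 0.05 (0 to 47).

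Among the 7 kinases and cyclins of mitotic entry, *Cdk1* and *Ccna2* rose, and the others did not pass the adjusted threshold. *Cdk1* encodes the catalytic subunit that, with its cyclins, starts mitosis. Its normalized counts were 1084, 1586 and 1013 in control and 2236, 2516 and 2292 in Atp6ap2iECKO replicates 1 to 3. The lowest Atp6ap2iECKO value was above the highest control value, and the log2 fold change was 0.96 (SE 0.16, adjusted P = 0.0162, limma). *Ccna2*, which encodes cyclin A2, had 1030, 1733 and 1064 in control and 2639, 2729 and 2388 in Atp6ap2iECKO libraries. These groups too were apart, by a log2 fold change of 1.06 (SE 0.19, adjusted P = 0.0192). *Ccnb1*, which encodes cyclin B1, had 436, 840 and 438 in control and 1252, 1129 and 829 in Atp6ap2iECKO libraries. Control replicate 2 thus exceeded Atp6ap2iECKO replicate 3, and a log2 fold change of 0.96 had an SE of 0.27 (adjusted P = 0.0704). *Ccnb2*, which encodes the other mitotic B-type cyclin, had the smallest log2 fold change of the 7, 0.51 (adjusted P = 0.199). *Plk1*, *Aurka* and *Melk*, which encode mitotic kinases, differed by 0.92, 0.63 and 0.99 on the log2 scale (adjusted P = 0.0674, 0.167 and 0.0737).

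Both transcription factors of the G2/M programme rose. *Mybl2*, which encodes B-MYB, showed the largest log2 fold change of the 54 genes. It had 298, 569 and 361 normalized counts in control and 860, 971 and 911 in Atp6ap2iECKO libraries, a log2 fold change of 1.21 (SE 0.22, adjusted P = 0.0198), and no overlap between groups. *Foxm1* had a log2 fold change of 0.86 (SE 0.19, adjusted P = 0.0335). *Plk4*, the kinase that starts centriole duplication, had the smallest P value of the 54. Its normalized counts were 463, 660 and 437 in control and 964, 1136 and 958 in Atp6ap2iECKO libraries, well separated, with a log2 fold change of 0.99 (SE 0.17, adjusted P = 0.0161).

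*Mki67*, which encodes the proliferation antigen Ki-67, was the most abundant of the 54 genes per kilobase of exon, at a control mean of 701 normalized counts per kilobase, and *Cenpk* was the least abundant, at 11.5. *Mki67* had 5273, 10785 and 5093 normalized counts in control and 12523, 15873 and 12577 in Atp6ap2iECKO libraries. The groups did not overlap, but control replicate 2 was 2.08 times the mean of the other 2 controls, and the adjusted P value was 0.0565 (log2 fold change 1.04, SE 0.27, limma). *Top2a*, which encodes the topoisomerase that untangles sister chromatids, had 3342, 6462 and 3190 in control and 8103, 9078 and 7449 in Atp6ap2iECKO libraries. It followed the same order of libraries among controls and rose by a log2 fold change of 1.00 (SE 0.25, adjusted P = 0.0489).

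Of the 5 condensin subunits, which compact mitotic chromosomes, 4 rose. *Ncaph* had 1609, 1698 and 1535 normalized counts in control and 2097, 2376 and 2405 in Atp6ap2iECKO libraries. The controls of this gene lay close together, and although its log2 fold change of 0.50 (SE 0.09) was the smallest of the 24 called genes, its adjusted P value was 0.0176. *Ncapg* had 547, 909 and 450 in control and 1157, 1447 and 1144 in Atp6ap2iECKO libraries, with a log2 fold change of 1.03 (SE 0.24, adjusted P = 0.0410). *Smc2* and *Smc4*, the ATPase subunits, rose by 0.91 and 0.58 on the log2 scale (adjusted P = 0.0386 and 0.0263). *Ncapd2* did not pass (0.66, adjusted P = 0.0811).

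Of the 9 centromere and kinetochore genes, *Cenpf* and *Nuf2* rose. *Cenpf*, a kinetochore protein that accumulates in G2 phase, had 1928, 2823 and 1437 normalized counts in control and 3978, 4386 and 3603 in Atp6ap2iECKO libraries. Its groups were apart, with a log2 fold change of 1.00 (SE 0.22, adjusted P = 0.0332). *Nuf2*, a subunit of the NDC80 complex that binds microtubules, had 341, 529 and 326 in control and 742, 884 and 707 in Atp6ap2iECKO libraries, a log2 fold change of 0.99 (SE 0.20, adjusted P = 0.0256). The other 3 subunits of that complex, *Ndc80*, *Spc24* and *Spc25*, showed differences of 0.69, 0.63 and 0.61 on the log2 scale (adjusted P = 0.155, 0.0977 and 0.107). *Cenpa*, the centromeric histone H3 variant, and *Cenpe*, a kinetochore motor, had 0.54 and 0.96 (adjusted P = 0.0860 and 0.0884), and *Cenpk* and *Knstrn* had 0.77 and 0.68 (adjusted P = 0.135 and 0.0931).

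Of the 4 spindle assembly checkpoint genes, *Ttk* and *Mad2l1* rose. *Ttk* encodes the kinase MPS1 at the head of the checkpoint. It had 216, 429 and 294 normalized counts in control and 674, 650 and 535 in Atp6ap2iECKO libraries, which did not overlap (log2 fold change 1.03, SE 0.24, adjusted P = 0.0396). *Mad2l1*, which encodes MAD2, had a log2 fold change of 0.93 (adjusted P = 0.0463). *Bub1* and *Bub1b*, which encode BUB1 and BUBR1, had 0.87 and 0.62 (adjusted P = 0.0633 and 0.128).

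The chromosomal passenger complex corrects wrong attachments and later acts at the cleavage site, and the genes of all 4 subunits rose. *Birc5*, which encodes survivin, had 441, 631 and 440 normalized counts in control and 1012, 968 and 848 in Atp6ap2iECKO libraries. The groups were apart, and the log2 fold change was 0.92 (SE 0.16, adjusted P = 0.0178). The kinase gene *Aurkb* and the genes of the other 2 subunits, *Cdca8* (borealin) and *Incenp*, rose by 0.97, 0.97 and 0.77 on the log2 scale (adjusted P = 0.0224, 0.0279 and 0.0448).

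Among the 9 genes of spindle motors and microtubule-associated proteins, *Kif4*, *Tpx2*, *Kif22* and *Kif11* rose. *Kif4* encodes a chromosome-bound kinesin, and had 658, 1073 and 668 normalized counts in control and 1452, 1598 and 1333 in Atp6ap2iECKO libraries. Its log2 fold change was 0.90 (SE 0.19, adjusted P = 0.0295), with no overlap between groups. *Kif11*, the motor that pushes the spindle poles apart, and *Tpx2*, the activator of Aurora A on the spindle, had 0.88 and 0.94 (adjusted P = 0.0498 and 0.0354), and *Kif22* had 0.80 (adjusted P = 0.0466). The other 5 genes of this role, *Kif15*, *Kif2c*, *Nusap1*, *Hmmr* and *Dlgap5*, had log2 fold changes from 0.73 to 0.97 and adjusted P values from 0.0786 to 0.134.

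Of the 5 genes of anaphase and protein destruction, *Ube2c* rose. *Ube2c* encodes the E2 enzyme of the APC/C and had 447, 643 and 426 normalized counts in control and 892, 1014 and 724 in Atp6ap2iECKO libraries. The lowest Atp6ap2iECKO value, in replicate 3, was above control replicate 2, and the log2 fold change was 0.81 (SE 0.19, adjusted P = 0.0409). *Espl1* (separase), *Cdc20* (the mitotic activator of the APC/C) and *Cdca3* had 0.86, 0.62 and 0.57 (adjusted P = 0.0714, 0.111 and 0.133). *Pttg1* stood apart from the other 53 genes. It encodes securin, the inhibitor of separase, and is named because of its values. Its normalized counts were 572, 543 and 472 in control and 491, 558 and 578 in Atp6ap2iECKO libraries. The groups were mixed, and the log2 fold change was 0.04, with a 95% confidence interval from -0.25 to 0.32 (adjusted P = 0.894). None of the 3 motifs was in the *Pttg1* window, which was likewise true of 7 other genes, among them *Mybl2*. The whole *Pttg1* window lies inside its GENCODE gene, so nothing was read of the sequence upstream of that gene model.

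Of the 6 genes of the central spindle and cytokinesis, *Ect2* rose. *Ect2* encodes the exchange factor that activates RhoA at the cleavage furrow, and had 539, 987 and 516 normalized counts in control and 1321, 1397 and 1234 in Atp6ap2iECKO libraries. The log2 fold change was 1.02 (SE 0.23, adjusted P = 0.0378), and the groups did not overlap. *Racgap1*, *Kif23*, *Prc1*, *Kif20a* and *Anln* had log2 fold changes from 0.62 to 0.87 and adjusted P values from 0.0667 to 0.128. In *Prc1*, *Kif23*, *Kif20a* and *Anln* control replicate 2 exceeded Atp6ap2iECKO replicate 3.

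The Atp6ap2iECKO libraries also kept an order. Replicate 3 was the lowest of them in 41 of the 54 genes, replicate 1 in 12 and replicate 2 in 1. The level in replicate 3 was a median of 0.859 times the mean of replicates 1 and 2 over the 54 genes. By role, this ratio had a median of 0.743 in central spindle and cytokinesis genes, 0.779 in anaphase genes and 0.950 in condensin genes, and its lowest values were those of *Cdc20* and *Knstrn* (0.668 and 0.669) and *Ccnb2* (0.683). Over 30 S phase genes the median was 1.05, and over all genes tested 0.99. These ratios describe 1 library against 2 and were not tested.

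Genes of the same processes outside the list were compared in the same fit. Of the 64 other mitosis genes, 19 rose and 0 fell, all 64 had a higher mean in Atp6ap2iECKO, and the median log2 fold change was 0.77. The 3 with the smallest P values were *Cdca5*, which encodes the cohesin protector sororin (1.40, SE 0.22, adjusted P = 0.0134), *Fbxo5*, which encodes the APC/C inhibitor EMI1 (1.24, SE 0.23, adjusted P = 0.0220), and the kinetochore gene *Pmf1* (0.87, SE 0.17, adjusted P = 0.0230). Of 30 S phase genes, 25 rose and 0 fell, with a median of 1.05 and no overlap between groups in any of the 30. *Cdt1*, which licenses replication origins, had 417, 590 and 477 normalized counts in control and 949, 1047 and 1077 in Atp6ap2iECKO libraries (log2 fold change 1.06, SE 0.14, adjusted P = 0.0103). The flap endonuclease gene *Fen1* and the helicase subunit gene *Mcm7* had 0.90 and 1.04 (adjusted P = 0.0167 and 0.0182).

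Machinery present throughout the cell cycle was listed separately. Of 24 genes for constitutive APC/C subunits and cohesin, 0 were called by limma, 2 were higher at an unadjusted P value below 0.05, and the median log2 fold change was 0.09. *Smc3*, *Stag1* and *Anapc15*, with the smallest P values, had 0.36, 0.23 and 0.59 (adjusted P = 0.0575, 0.148 and 0.216). Of 20 genes for CDK inhibitors, quiescence factors and subunits of the DREAM complex, 2 rose and 2 fell. *Cdkn1c*, which encodes the CDK inhibitor p57, had 1431, 1320 and 1835 normalized counts in control and 757, 639 and 518 in Atp6ap2iECKO libraries, and fell by 1.26 on the log2 scale (SE 0.17, adjusted P = 0.0103). The other CDK inhibitor genes of the list, *Cdkn1a*, *Cdkn1b*, *Cdkn2c* and *Cdkn2d*, were not called. Their log2 fold changes were 0.39, -0.07, 0.22 and 0.10 (adjusted P = 0.0750, 0.80, 0.435 and 0.579, limma). The antiproliferative gene *Btg2* fell by 0.67 (adjusted P = 0.0482). *Tfdp1*, which encodes the E2F partner DP1, and *Ccng1*, which encodes cyclin G1, rose by 0.46 and 0.41 on the log2 scale (adjusted P = 0.0411 and 0.0477). With each library scaled to the same total, 5 of the 20 rose and 1 fell.

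**Figure D5:**
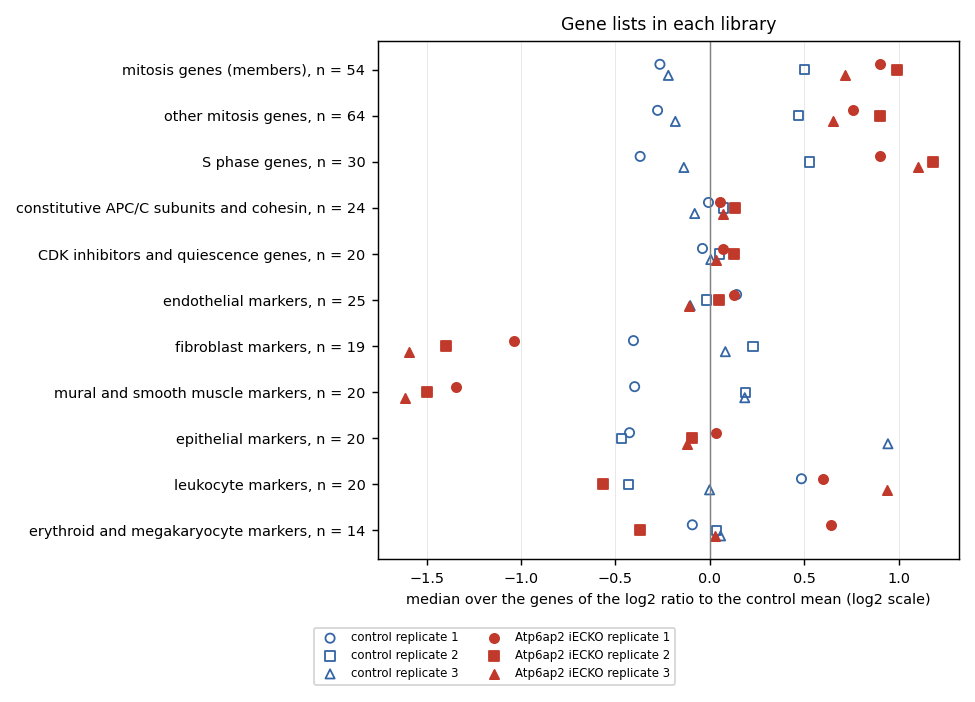
Median over each gene list of the log2 ratio to the control mean (horizontal axis, log2 scale) in each library; symbols as in the plot of single genes. The S phase list and the 64 other mitosis genes have the 3 Atp6ap2iECKO libraries above all controls, as the 54 mitosis genes do, and the fibroblast and mural lists have them below.

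Most fibroblast and mural markers were lower in Atp6ap2iECKO libraries, where the mitosis genes were higher. Of 19 fibroblast markers tested, 13 fell and 0 rose (median log2 fold change -1.36), and their summed level was between 293250 and 367106 in control and between 166988 and 226422 in Atp6ap2iECKO libraries. The 2 most abundant on the list, *Eln* and *Macf1*, were not among the 13 (0.03 and -0.48, adjusted P = 0.929 and 0.0778). *Eln* had 64066 to 76410 normalized counts in control and 59646 to 81997 in Atp6ap2iECKO libraries. *Macf1* had 57862 to 76365 and 43761 to 49202. These 2 genes held a large part of the sums, which therefore show less of a fall than the median does. Of 20 mural and smooth muscle markers, 13 fell and 0 rose (median -1.52), with sums of 76984 to 83755 and 50589 to 60841. Of their 2 most abundant genes, *Postn* fell by 1.57 on the log2 scale (adjusted P = 0.00731), and *Mcam* had 0.10 (adjusted P = 0.680). *Mcam* alone had 34055 to 42927 normalized counts in control and 37002 to 43333 in Atp6ap2iECKO libraries, a large part of the mural sums. The sums therefore show less of a fall than the median does. The median log2 ratio of the fibroblast markers to the control mean was -0.40, 0.23 and 0.08 in control replicates 1 to 3, where that of the mitosis genes was -0.26, 0.50 and -0.22. Control replicate 2, the highest control for the mitosis genes, was thus also the highest control for the fibroblast markers. For the mural markers it was level with control replicate 3 (both 0.19), and for the leukocyte markers it was the lowest control (-0.43). The part of these cells in the results was not tested.

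Endothelial markers showed 0 rises and 1 fall among 25 (*Tek*, -0.53, adjusted P = 0.0292), with a median of 0.03 and sums of 463725 to 592805 in control and 475964 to 558447 in Atp6ap2iECKO libraries. Of 20 epithelial markers, 1 rose (*Scgb1a1*), the median was -0.12, and the sums were 34086 to 86817 and 41747 to 49184. The highest sum was that of a control library, and the most abundant genes *Sftpc* and *Ager* had -0.14 and -0.16 (adjusted P = 0.857 and 0.831). Leukocyte markers (20 of 24 tested, median 0.36) and erythroid and megakaryocyte markers (14 of 17 tested, median -0.09) had 0 calls by limma, with 1 and 0 at an unadjusted P value below 0.05. The leukocyte sums were 7831 to 14788 in control and 6421 to 19562 in Atp6ap2iECKO libraries, and the erythroid sums 15745 to 49997 and 14984 to 25524. *Lyz2* and *Ptprc*, the most abundant leukocyte markers, had -0.05 and 0.36 (adjusted P = 0.954 and 0.650), and *Hba-a1* and *Hba-a2* had -0.73 and -1.19 (adjusted P = 0.458 and 0.247). *Hbb-bs* was at 0 in all 6 libraries, and *Lum*, *Ly6g*, *Mcpt4*, *Klf1* and *Epb42* were at 0 in some.

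For 6 of the 54 genes, over 10% of the exon bases are overlapped by a gene on the opposite strand in GENCODE. These were *Kif20a* with *Cdc23* (29.3%), *Ube2c* with *Tnnc2* (22.8%), *Kif4* with *Pdzd11* (15.1%), *Ncapg* with *Lcorl* (13.4%), *Ccna2* with *Exosc9* (12.5%) and *Prc1* with *Rccd1* (11.1%). The library kit does not mark strand, so reads of a pair cannot be told apart there. *Ccnb1*, *Ccnb2*, *Kif4* and *Kif22* also have named pseudogenes, with which reads may be shared.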

How the data were processed

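The RNA-Seq covered 6 libraries, from 3 control and 3 Atp6ap2iECKO samples. Libraries were made with a TruSeq kit that does not mark strand. The authors aligned the reads to mm10 and quantified genes with BaseSpace tools. The deposited values are a normalized signal per gene, with non-whole estimated counts, although the labels call them raw; the median ratio to the geometric mean was 1.004 in every library. Read numbers cannot be recovered from them, so no counting interval is given, count models were not used, and precision is that of 3 libraries per genotype.

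Columns were assigned by their names, and all per-sample columns were used. Genes at 10 or more in at least 3 libraries were tested, 14456 of 24972. Log2(value + 1) was compared between genotypes with limma 3.58.1 in R 4.3.3 (mean-variance trend, no covariate, two-sided, Benjamini-Hochberg adjustment over all genes tested, threshold 0.05), after a test on simulated data. A count model had been planned only for the case that the values were raw counts. Fold changes are on the log2(value + 1) scale. Single values were also compared by exact permutation, whose smallest two-sided P value is 0.1. Exon lengths, overlaps and coordinates came from GENCODE M21 (GRCm38), in which all 54 genes matched, and promoter windows from RefSeq (GRCm38.p6).

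The genes, roles, pathway and marker lists were chosen with earlier results of these data known, so none gives independent support. Full values are given for *Mki67*, *Top2a*, *Cdk1* and *Ccnb1*, the 8 largest differences among called genes and the smallest P value of each role. Of each pathway list the 3 smallest P values, and all calls if 5 or fewer, and of each marker list the 2 most abundant genes, are named. *Pttg1*, *Ccnb2*, *Kif11* and the other members were named after their values were seen, as were the CDK inhibitor genes that were not called. Alternatives were other scalings, filters, pseudocounts, thresholds and variance models, a replicate covariate, *Xist* presence (above 1000) as a covariate, and each library left out. For the cell type lists they were added after the data were seen.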

Additional observations from a re-analysis of the deposited data

How the results depend on the processing

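None of the 54 genes was called lower under any alternative, and their median log2 fold change was 0.70 to 1.12 with 1 library left out, against 0.86. Of the 54, 24 were called, and 13 with the *Xist* covariate, 0 without the mean-variance trend, 0 at an adjusted P value below 0.01 and 41 below 0.1, and from 0 to 47 with 1 library left out. Other scalings, filters and pseudocounts and robust eBayes gave 20 to 26. Over all genes, 474 were called higher, 248 with the *Xist* covariate, 69 without the trend and 28 to 460 with 1 library left out. No such count was made at 0.01 or 0.1. Among the other mitosis genes the same 4 settings gave 7, 1, 0 and 37, and leaving out 1 library 0 to 42, against 19. S phase genes gave 16, 1 and 0 under the first 3, and 1 to 29 with 1 library left out, against 25. For APC/C and cohesin, 1 gene was called with scaling to the same total and 1 below 0.1, against 0. Of the CDK inhibitor and quiescence genes, 2 rose, and 5 did with total scaling, 1 with no filter, 0 with the *Xist* covariate, without the trend or at 0.01, 6 at 0.1, and 0 to 3 with 1 library left out; 2 fell, and 1 did with total scaling, no filter, the *Xist* covariate or no trend, 0 at 0.01, and 1 to 2 with 1 library left out. The log2 fold change of *Pttg1* ranged from -0.0432, without control replicate 3, to 0.1064, without Atp6ap2iECKO replicate 1, and was -0.0109 without Atp6ap2iECKO replicate 3. It was not called in any of these. Where a count fell, the cause was not tested.

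Among cell type lists, the 13 fibroblast calls were 6 without the trend, 4 at 0.01, and 5 to 13 with 1 library left out, and 1 fibroblast gene rose at 0.1. The 13 mural calls were 7 at 0.01 and 8 to 15 with 1 library left out. Single calls came or went elsewhere. The 1 endothelial and 1 epithelial call each became 0 with the *Xist* covariate, without the trend and at 0.01, and 0 to 1 with 1 library left out, when 0 to 1 endothelial and 0 to 1 leukocyte markers were called higher and 0 to 2 erythroid markers lower.

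The study does not state that libraries sharing a replicate number were paired, and the main fit did not pair them. After the mean of each genotype was taken off every gene, control and Atp6ap2iECKO libraries were correlated with each other. Pairs sharing a number gave 0.252, 0.114 and 0.0782 for replicates 1 to 3. Pairs with different numbers ran from -0.208 to 0.10. The only positive value among the latter was control replicate 3 with Atp6ap2iECKO replicate 2 (0.10), above the 0.0782 of replicate 3. These values do not establish a pairing. With a replicate block, 44 of the 54 genes were called, including all 24. Calls also increased over all genes, with 670 called higher against 474 in the main fit. The block gave 38 other mitosis genes, 1 APC/C or cohesin gene and 4 CDK inhibitor and quiescence genes higher. It also gave 1 fibroblast and 1 leukocyte marker higher and 1 erythroid marker lower.

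Depth is known only on a relative scale, and with 3 libraries per genotype the adjusted P values of most of the 54 genes lay close to the threshold.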
